A study of Manihot esculenta with 4 samples.

Results

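In cassava leaves, 64 genes were at least 2-fold lower under drought than in control plants of the cultivar Xinxuan048, while the cultivar KU50 showed little difference between the same conditions. Cassava, Manihot esculenta, is a tropical crop grown for its starchy storage roots. Leaf RNA had been sequenced in 4 libraries, namely Xinxuan048 under drought, Xinxuan048 under normal conditions (control), KU50 under drought and KU50 under normal conditions. Each group held 1 library. How long and how hard the plants were dried, their age and how many were pooled in a library are not given in the sources used here. Values are FPKM as deposited by the authors, in which fragment numbers are divided by the length of the transcript and by the mapped total.

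The 64 genes were chosen by the measured responses themselves, out of 27146 genes listed in at least 1 library. A gene had to lie on a numbered chromosome, span at least 500 bases and average at least 1 and less than 300 FPKM over the 4 libraries. This left 18602 genes, called the filtered genes here, and the 64 members make up 0.344% of them. The log2 ratio of drought to control, after adding 1 to both values, had to be at most -1 in Xinxuan048 and between -0.5 and 0.5 in KU50. Both responses were therefore fixed by the choice, and they are given as a description. With 1 library per group there is no spread between replicates, so no difference below has a test or a replicate check.

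Drought lowers water supply to the leaf. Leaves respond by closing stomata, largely through the hormone abscisic acid, and by slowing growth and carbon fixation while protective genes are switched on. Transcripts that decline under drought are a regular part of that programme, and cultivars can differ in when and how far they decline. The genes are known here only by their locus tags. The deposited files pair no tag with a name or description, and 0 of 27146 tags matched the RefSeq gene table of the species, so no function is given for any member. Leaf libraries mix cell types, and fewer cells of a type cannot be told apart from less of a transcript per cell.

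Genes listed per library numbered 25009 in Xinxuan048 drought, 24405 in Xinxuan048 control, 25336 in KU50 drought and 25296 in KU50 control, and FPKM totals lay between 611226 and 636034. Absolute depth is unknown, but the lowest values show the relative depth, since they cluster where single fragments would put them. In this measure 1 fragment was worth 1.18 times as much FPKM in Xinxuan048 drought as in KU50 control, against 1.01 times in Xinxuan048 control and 1.01 times in KU50 drought. By this measure Xinxuan048 drought, the library in which the members are low, held the fewest fragments, and the part of depth in their values was not tested. A gene absent from a library's file is called unlisted and was taken as 0 FPKM.

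The genes lowered by drought in Xinxuan048 were divided by their KU50 ratio, with the FPKM as deposited. Of the filtered genes, 396 had a log2 ratio of at most -1 in Xinxuan048, which is 2.13%. In KU50, 238 of these 396 were also at most -1, 74 were above -1 and at most -0.5, 64 were the members, and 20 were at least 0.5. The members are thus 16.2% of the genes lowered in Xinxuan048. The KU50 band by itself is wide, since 53.7% of the filtered genes lie between -0.5 and 0.5. Exchanging the cultivars in the rule gave 300 of the 18602 filtered genes, lowered by drought in KU50 only. With TMM scaling the number of members rose from 64 to 158. Neither the 300 genes nor the 238 lowered in both cultivars were recounted under other scalings, so the sizes of the sets are not compared.

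**Figure D1:**
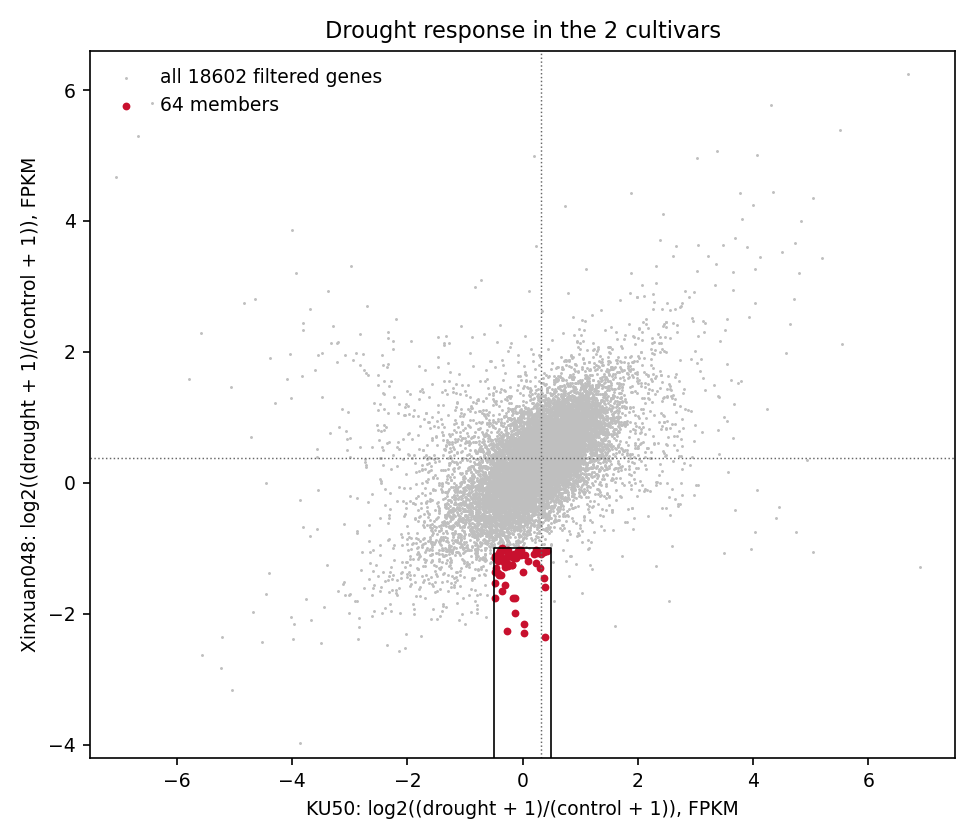
Log2 ratio of drought to control in KU50 (horizontal) and in Xinxuan048 (vertical) for the 18602 filtered genes (grey) and the 64 members (red), on the scale of log2(FPKM + 1). The solid lines bound the rule and the dotted lines mark the medians of the filtered genes, 0.31 in KU50 and 0.37 in Xinxuan048. The members crowd the upper edge of their area, at log2 ratios from -2.36 to -1.002 in Xinxuan048.

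Most members were only modestly below the limit. Their median log2 ratio in Xinxuan048 was -1.17, against 0.37 for the filtered genes. In 34 of 64 the ratio was above -1.2, in 12 it was at most -1.5 and in 4 at most -2. Summed over the members, the FPKM came to 1228 in Xinxuan048 drought, against 2848 in Xinxuan048 control, and to 1867 in KU50 drought and 2245 in KU50 control. The median member had 3.66 FPKM in Xinxuan048 drought, 10.1 in Xinxuan048 control, 7.54 in KU50 drought and 7.74 in KU50 control.

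By median, the KU50 ratio of the members also lay below that of the filtered genes. In KU50 the members had a median log2 ratio of -0.19, while the filtered genes had 0.31, since most genes had higher FPKM under drought. Relative to the median of the filtered genes, the members' medians differed by -1.54 in Xinxuan048 and by -0.50 in KU50 on the log2 scale. The KU50 ratio was below 0 in 47 of 64 members, or 73.4%, and below the median of the filtered genes in 58. Among all 9985 genes inside the same KU50 band, 32.0% were below 0 and the median was 0.16. The band of the rule lies mostly below 0.31, so part of the offset in KU50 was set by the choice. The rest was not tested. With TMM scaling, which centres the libraries on each other, the members' medians were -1.49 in Xinxuan048 and -0.46 in KU50, and 27 of 64 were at or below -0.5 in KU50.

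**Figure D2:**
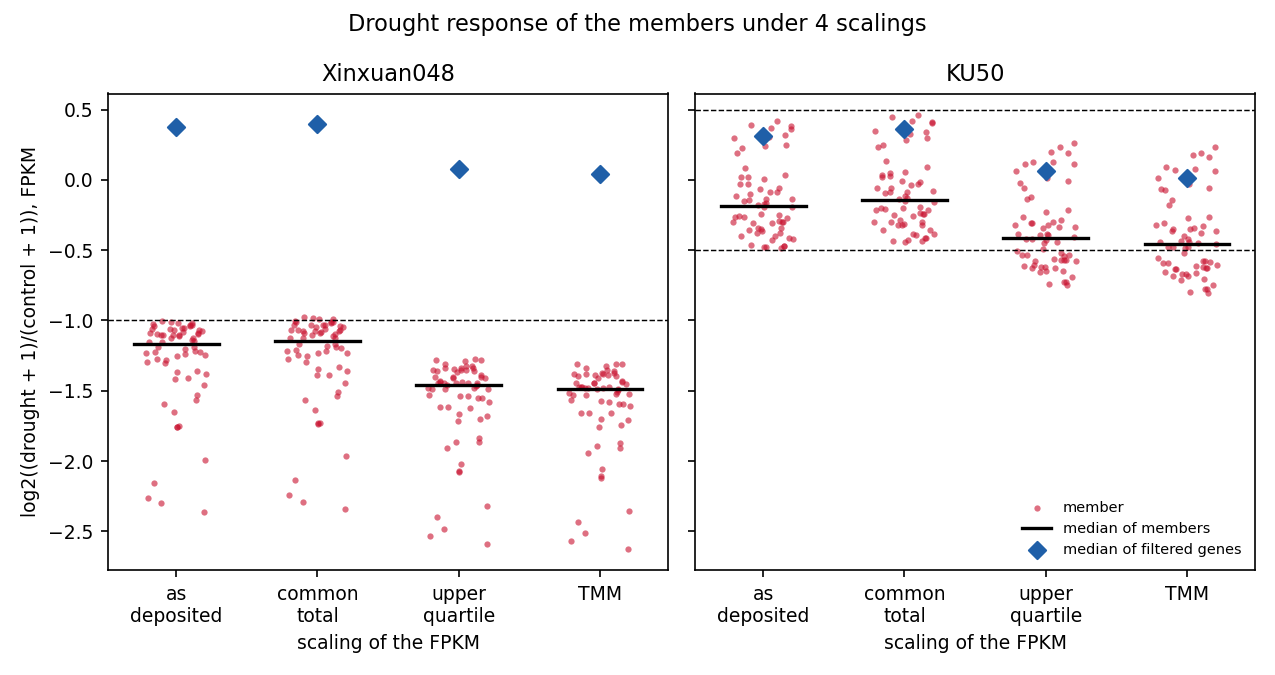
Log2 ratio of drought to control of the 64 members (red points, spread sideways at random) in Xinxuan048 (left) and KU50 (right), with the FPKM as deposited and under 3 other scalings. Black bars are medians of the members, blue diamonds medians of the filtered genes, and dashed lines the limits of the rule. Upper-quartile and TMM scaling moved both cultivars' medians down together, in KU50 to -0.41 and -0.46.

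A member can arise in different ways. Xinxuan048 may stand above KU50 in control leaves and come down to the level of KU50 under drought, or it may start level with KU50 and end below it. The response in Xinxuan048 minus that in KU50 equals the gap between the cultivars under drought minus their gap in control leaves, each gap being the log2 ratio of Xinxuan048 to KU50. With a limit of 1 on each gap, 17 members were high in Xinxuan048 control, 19 were low in Xinxuan048 drought, 1 was both, and 27 passed neither limit. Among the filtered genes, 2.11% had a control gap of at least 1 and 3.78% a drought gap of at most -1. The rule favours both gaps, so nothing is read from the members' larger shares.

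**Figure D3:**
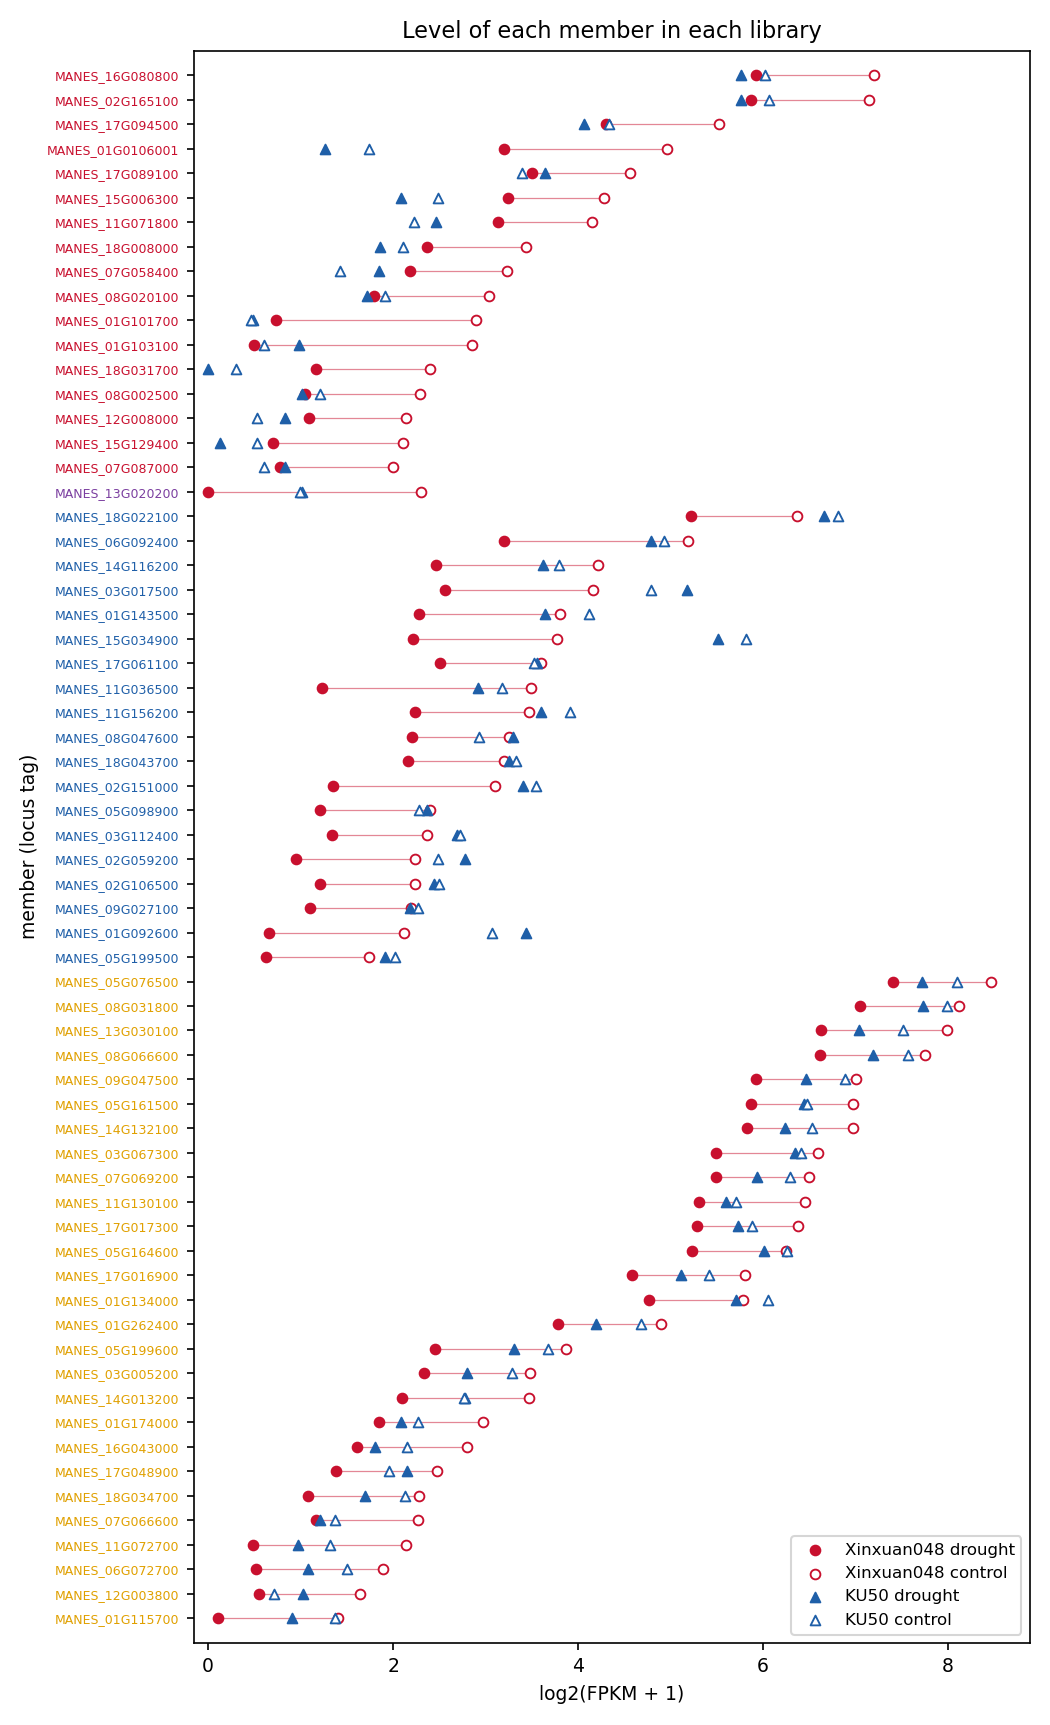
Level of each of the 64 members, as log2(FPKM + 1), in Xinxuan048 drought (filled circles), Xinxuan048 control (open circles), KU50 drought (filled triangles) and KU50 control (open triangles), with a line joining the Xinxuan048 libraries. Tags are coloured by group, from the top: high in Xinxuan048 control (red), both (violet), low in Xinxuan048 drought (blue) and neither (ochre), each sorted by the level in Xinxuan048 control. The red group is defined by an open circle to the right of the open triangle, and the blue group by a filled circle to the left of the filled triangle. In some members, such as MANES_01G0106001 and MANES_15G034900, both libraries of a cultivar stand apart from those of the other.

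Of the 17 members high in Xinxuan048 control, 12 averaged less than 10 FPKM, as did 13 of the 19 low in Xinxuan048 drought. The same held for 38 of all 64 members and for 9116 of the 18602 filtered genes, so low levels are common in general. In the members high in Xinxuan048 control the medians were 3.55 FPKM in Xinxuan048 drought, 8.38 in Xinxuan048 control, 2.29 in KU50 drought and 2.34 in KU50 control. The lowest log2 ratio with 1 added belonged to MANES_01G103100 at chromosome 1, 22545115 to 22546699, but with 5 added it was -1.05 there and lower, at -1.62, in MANES_06G092400. MANES_01G103100 had 0.406 FPKM in Xinxuan048 drought, against 6.22 in Xinxuan048 control, and 0.972 in KU50 drought and 0.514 in KU50 control. Only Xinxuan048 control was above 1 FPKM, and the log2 ratio was -2.36 in Xinxuan048 and 0.38 in KU50.

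MANES_01G101700 had the same form. It lies on the same chromosome from 22442255 to 22443900, and 101214 bases and 13 listed genes separate it from MANES_01G103100. It had 0.667 FPKM in Xinxuan048 drought, against 6.43 in Xinxuan048 control, and 0.399 in KU50 drought and 0.379 in KU50 control. Its log2 ratios were -2.16 in Xinxuan048 and 0.02 in KU50. Both genes are thus near the bottom of the scale in all libraries but 1.

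At 3 more abundant members of this group, chosen after their values were seen, all libraries but Xinxuan048 control lay close together. MANES_16G080800 (chromosome 16, 23735186 to 23737314) had 59.7 FPKM in Xinxuan048 drought, against 146 in Xinxuan048 control, and 53.2 in KU50 drought and 64.0 in KU50 control. MANES_02G165100 (chromosome 2, 12446763 to 12451422) had 57.5 and 141 FPKM in Xinxuan048 drought and control, and 53.1 and 65.9 in KU50 drought and control. MANES_17G094500 (chromosome 17, 23708207 to 23711221) had 18.7 and 44.9 FPKM in Xinxuan048 drought and control, and 15.8 and 19.2 in KU50 drought and control. In each of them Xinxuan048 control was the highest library, as the rule and the limits require, and Xinxuan048 drought was slightly above KU50 drought.

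A few members were higher in Xinxuan048 under both conditions, with a smaller difference between the cultivars under drought than in control leaves. Both gaps were at least 1 in 3 of 64 members, against 0.693% of the filtered genes. The rule favours a high control gap and keeps the drought gap below it in every member, so nothing is read from either. The largest gaps were those of MANES_01G0106001 at chromosome 1, 1890838 to 1891372, with 8.22 FPKM in Xinxuan048 drought, against 30.2 in Xinxuan048 control, and 1.39 in KU50 drought and 2.34 in KU50 control. Its gap was 3.22 in control leaves and 1.95 under drought, and its KU50 ratio of -0.48 is close to the edge of the rule. The tag differs in its last digit from that of MANES_01G0106002, which begins at 1884530 and ends 4305 bases before it.

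MANES_01G0106002, which is no member, had 16.7 FPKM in Xinxuan048 drought, against 37.2 in Xinxuan048 control, and 4.14 in KU50 drought and 0.561 in KU50 control. Its log2 ratio was -1.11 in Xinxuan048, like that of a member, but 1.72 in KU50. How fragments were divided between these loci is not given in the sources used here. The others above in both conditions, chosen after their values were seen, were MANES_15G006300 and MANES_18G031700. MANES_15G006300, on chromosome 15, had 8.45 and 18.4 FPKM in Xinxuan048 drought and control, and 3.25 and 4.60 in KU50 drought and control. MANES_18G031700, on chromosome 18, had 1.24 and 4.27 FPKM in Xinxuan048 drought and control, was unlisted in KU50 drought and had 0.233 FPKM in KU50 control.

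The members low in Xinxuan048 drought differ from these by definition. Their medians were 3.48 FPKM in Xinxuan048 drought, 8.57 in Xinxuan048 control, 9.62 in KU50 drought and 9.09 in KU50 control. The rule and the limits force Xinxuan048 drought to be the lowest library in this group, so nothing is read from that. In 13 of the 19 KU50 was above Xinxuan048 in control leaves. Over all filtered genes Xinxuan048 was the higher in control leaves in only 35.4%, so nothing is read from this count. MANES_11G036500 (chromosome 11, 3094579 to 3095833) had 1.35 FPKM in Xinxuan048 drought, against 10.3 in Xinxuan048 control, and 6.56 in KU50 drought and 8.08 in KU50 control. Its log2 ratios were -2.26 in Xinxuan048 and -0.26 in KU50.

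MANES_06G092400 at chromosome 6, 20527637 to 20528502, showed the same at a higher level. It had 8.16 FPKM in Xinxuan048 drought, against 35.5 in Xinxuan048 control, and 26.6 in KU50 drought and 29.4 in KU50 control, with log2 ratios of -1.99 and -0.14 in Xinxuan048 and KU50. MANES_14G116200 (chromosome 14, 10094363 to 10096067) had 4.51 and 17.6 FPKM in Xinxuan048 drought and control, and 11.3 and 12.9 in KU50 drought and control. MANES_02G151000 (chromosome 2, 11255745 to 11256704) had 1.55 and 7.57 FPKM in Xinxuan048 drought and control, and 9.62 and 10.7 in KU50 drought and control. In these 3 genes Xinxuan048 drought was the lowest library by a wide margin, and the other three lay closer together.

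The lowest drought gaps were found where KU50 was already above Xinxuan048 in control leaves. MANES_15G034900 (chromosome 15, 2618758 to 2620972) had 3.63 FPKM in Xinxuan048 drought, against 12.7 in Xinxuan048 control, and 44.8 in KU50 drought and 55.4 in KU50 control. Its gap was -3.31 under drought and -2.04 in control leaves. It was the 1 member with both gaps at or below -1 on the scale of log2(FPKM + 1), which held for 1.4% of the filtered genes. The KU50 libraries both lay above the higher of the Xinxuan048 libraries.

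MANES_01G092600 and MANES_03G017500 were alike in this, but in KU50 they were slightly higher under drought. MANES_01G092600 (chromosome 1, 21691969 to 21693634) had 0.582 FPKM in Xinxuan048 drought, against 3.35 in Xinxuan048 control, and 9.80 in KU50 drought and 7.39 in KU50 control. MANES_03G017500 (chromosome 3, 1421416 to 1423797) had 4.92 FPKM in Xinxuan048 drought, against 16.9 in Xinxuan048 control, and 35.3 in KU50 drought and 26.6 in KU50 control. Their log2 ratios in KU50 were 0.36 and 0.39, and in Xinxuan048 they were -1.46 and -1.59, in the order named. Their drought gaps were -2.77 and -2.62.

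**Figure D4:**
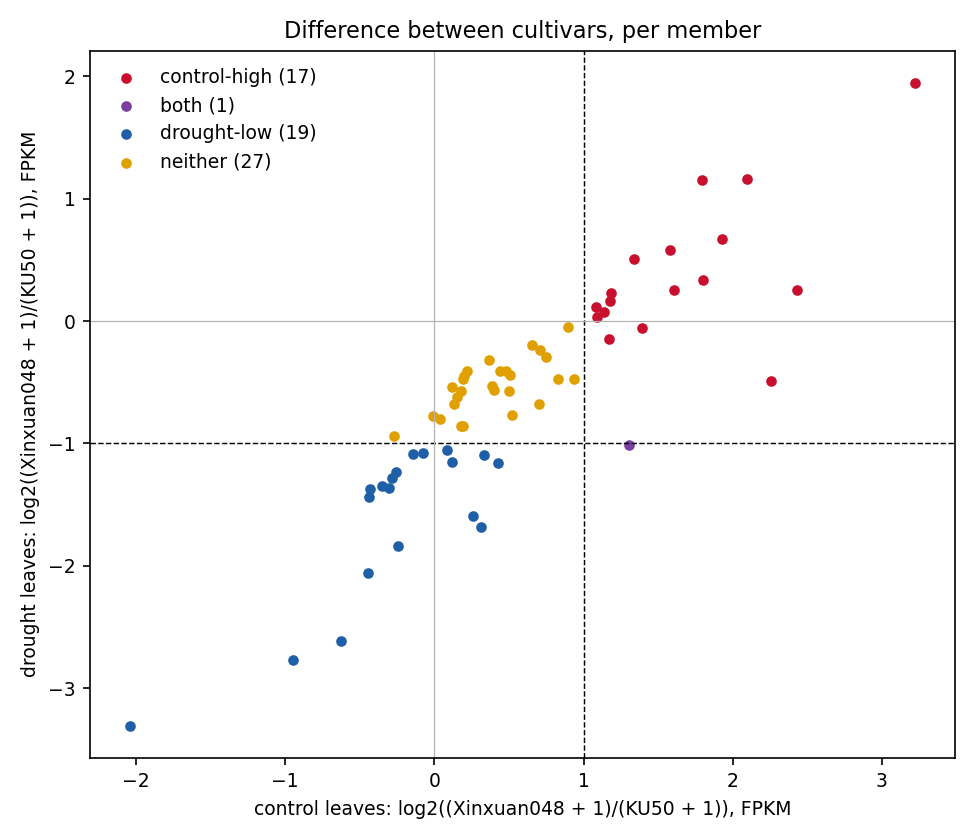
Log2 ratio of Xinxuan048 to KU50 in control leaves (horizontal) and under drought (vertical) for the 64 members, on the scale of log2(FPKM + 1), coloured by group with the number of members. Dashed lines mark the limits of 1 and -1. The members form 1 band from MANES_15G034900 at -2.04 and -3.31 to MANES_01G0106001 at 3.22 and 1.95, with no empty space between the groups. Both of these ends stand apart, the next control gaps being -0.95 and 2.43. The rule keeps the drought gap below the control gap, so the band is largely forced.

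The 27 members that passed neither limit included 14 of the 17 that averaged at least 30 FPKM. Their medians were 23.1 FPKM in Xinxuan048 drought, 54.1 in Xinxuan048 control, 33.7 in KU50 drought and 41.7 in KU50 control. In 25 of them Xinxuan048 was above KU50 in control leaves and below it under drought, as in 14.8% of the filtered genes, but the rule and the limits on the gaps largely force such a crossing. Their median KU50 ratio was -0.34, the lowest of the 3 larger groups. The highest level belonged to MANES_05G076500 at chromosome 5, 5767789 to 5769836. It had 168 FPKM in Xinxuan048 drought, against 352 in Xinxuan048 control, and 210 in KU50 drought and 273 in KU50 control.

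MANES_08G031800 (chromosome 8, 2857721 to 2861000) had 132 FPKM in Xinxuan048 drought, against 277 in Xinxuan048 control, and 211 in KU50 drought and 253 in KU50 control. MANES_13G030100 (chromosome 13, 2830971 to 2833063) had 97.9 and 253 FPKM in Xinxuan048 drought and control, and 130 and 182 in KU50 drought and control. MANES_08G066600 (chromosome 8, 9053298 to 9054297) had 97.4 and 214 FPKM in Xinxuan048 drought and control, and 145 and 189 in KU50 drought and control. All 4 of these genes were lower under drought in both cultivars as deposited, with KU50 log2 ratios of -0.38, -0.26, -0.47 and -0.37 in the order given.

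All 17 members that averaged at least 30 FPKM had a KU50 ratio below 0, from -0.47 to -0.03 with a median of -0.29. Among all genes of that level inside the same KU50 band, 42.4% were below 0, against 31.3% of those under 10 FPKM, so ratios below 0 were more frequent at high levels in general. In 12 of the 17 the values were ordered from Xinxuan048 control over KU50 control and KU50 drought down to Xinxuan048 drought. Over all members 25 of 64 had that order, against 1.59% of the filtered genes, and since the rule favours it nothing is read from the difference. A KU50 ratio above 0 was found in 17 members. Of the filtered genes, 0.199% combined it with a Xinxuan048 ratio of at most -1. The rule demands that Xinxuan048 ratio of every member, so this share is no base for the count. Of these 17 members 15 averaged under 10 FPKM, as did 38 of all 64 members and 9116 of the 18602 filtered genes. With TMM scaling 9 members were above 0 in KU50.

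Single libraries were often at the extreme. Xinxuan048 drought was the lowest of the 4 libraries in 48 of 64 members, and in 10.7% of the filtered genes. Xinxuan048 control was the highest in 48 members, and in 10.1% of the filtered genes. The rule compares these libraries with each other, so nothing is read from these counts.

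By level, the members were spread over the whole range that the rule admits. They were 15 of 3096 filtered genes between 1 and 3 FPKM (0.484%), 23 of 6020 between 3 and 10 (0.382%), 9 of 6196 between 10 and 30 (0.145%), 13 of 2671 between 30 and 100 (0.487%) and 4 of 619 between 100 and 300 (0.646%). The share was thus lowest in the middle class, which holds the most genes. Of the 38 members below 10 FPKM, 12 were high in Xinxuan048 control and 13 low in Xinxuan048 drought.

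The number of fragments behind the lowest members is not known, but a lower bound can be given. After allowing for relative depth, each of a member's values is at least as many fragments as it is times the lowest listed value, if that holds at least 1 fragment. MANES_13G020200, chosen after its values were seen, spans exactly 500 bases of chromosome 13 and was the member that passed both limits. It was unlisted in Xinxuan048 drought, had 3.93 FPKM in Xinxuan048 control, 1.02 in KU50 drought and 0.994 in KU50 control. With that allowance, KU50 drought stood at 1.01 times the lowest listed value, that of KU50 control, and Xinxuan048 control at 3.92 times it. The response of MANES_13G020200 thus rests on few fragments if the lowest value is 1 fragment. MANES_01G115700, also chosen after its values were seen, had 0.0740 FPKM in Xinxuan048 drought, against 1.65 in Xinxuan048 control, and 0.870 in KU50 drought and 1.58 in KU50 control. After allowing for relative depth, its Xinxuan048 control value was 26.1 times the lowest listed value, that of Xinxuan048 drought.

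The members had shorter loci than most genes. Their median span was 2027 bases, with quartiles of 1172 and 3223, against 3750 for the filtered genes, with quartiles of 2217 and 6070. Spans under 2000 bases were found in 48.4% of the members and 21.5% of the filtered genes. The other lowered genes were short as well, with a median of 2262 bases in the 300 genes lowered in KU50 only and 1867 in the 238 lowered in both cultivars. The span of a locus includes introns and is not the transcript length used for FPKM.

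Members lay on 16 of the chromosomes, with none on chromosomes 4 and 10. Chromosome 1 held the most, 9 of 1684 filtered genes, and chromosome 17 the highest share, 6 of 703 or 0.853%. The lowest shares above 0 were 0.176% on chromosome 9 and 0.185% on chromosome 6. None of the 64 loci overlapped another listed locus on a numbered chromosome.

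The members are 0.344% of the filtered genes, and no base rate of neighbouring pairs was computed, so nothing is read from their number. MANES_05G199500 and MANES_05G199600 were the 1 pair with no listed gene between them, 11036 bases apart on chromosome 5. MANES_05G199600, from 27334502 to 27336331, had 4.48 FPKM in Xinxuan048 drought, against 13.6 in Xinxuan048 control, and 8.92 in KU50 drought and 11.8 in KU50 control. MANES_05G199500, from 27317658 to 27323465, had 0.546 FPKM in Xinxuan048 drought, against 2.33 in Xinxuan048 control, and 2.77 in KU50 drought and 3.05 in KU50 control. In both genes Xinxuan048 drought was the lowest library, while the highest was KU50 control in MANES_05G199500 and Xinxuan048 control in MANES_05G199600.

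Within 100 kb there was 1 further pair, MANES_11G071800 and MANES_11G072700, named for their position after their values were seen, with 86235 bases and 7 listed genes between them. MANES_11G071800 had 7.79 and 16.8 FPKM in Xinxuan048 drought and control, and 4.53 and 3.68 in KU50 drought and control. MANES_11G072700 had 0.405 and 3.42 FPKM in Xinxuan048 drought and control, and 0.955 and 1.49 in KU50 drought and control. The nearest filtered genes on either side of the members, 126 that are not members themselves, had median log2 ratios of 0.31 in Xinxuan048 and 0.18 in KU50. The medians of the filtered genes were 0.37 and 0.31 in the same order.

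The 300 genes lowered by drought in KU50 only were divided by the same limits, with the cultivars exchanged. Among the members 26.6% were high in Xinxuan048 control, 29.7% low in Xinxuan048 drought and 42.2% neither. Of the 300 genes, 118, or 39.3%, were high in KU50 control, 44, or 14.7%, were low in KU50 drought, 8 were both and 130, or 43.3%, were neither. The median response in the lowered cultivar was -1.17 for the members and -1.29 for the 300 genes. These shares come from the same 4 libraries, and whether they differ was not tested.

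The edges of the rule cut through a continuous range. Just inside the limit of -1 in Xinxuan048 stood MANES_07G069200 at -1.002, with 44.0 and 89.2 FPKM in Xinxuan048 drought and control and 60.4 and 77.5 in KU50 drought and control, and MANES_01G134000 at -1.01. Just outside were MANES_15G177200 at -0.996 and MANES_13G106900 at -0.991. At the lower KU50 limit MANES_03G005200, at -0.49, with 4.04 and 10.2 FPKM in Xinxuan048 drought and control and 5.98 and 8.78 in KU50 drought and control, was a member. MANES_01G112600, at -0.501, and MANES_03G113500, at -0.54, were not. At the upper KU50 limit MANES_07G058400 was a member at 0.42, with 3.55 and 8.38 FPKM in Xinxuan048 drought and control and 2.61 and 1.69 in KU50 drought and control, while MANES_09G065300 at 0.53 and MANES_02G046400 at 0.55 were not.

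Membership depended on how the FPKM were scaled. Of the 64 members, 36 met both limits under each of the 3 other scalings, 11 of them high in Xinxuan048 control, 15 low in Xinxuan048 drought, 1 both and 9 neither. Adding 0.1 or 5 in place of 1 before taking logarithms left 49 and 24 members. Under every one of these settings 9 genes were kept, namely MANES_01G101700, MANES_03G017500, MANES_03G067300, MANES_05G161500, MANES_06G092400, MANES_11G130100, MANES_14G116200, MANES_17G017300 and MANES_18G022100.

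The 5 of these 9 not yet described, named because they kept both limits, were well expressed in every library. MANES_03G067300, on chromosome 3, had 43.9 FPKM in Xinxuan048 drought, against 95.8 in Xinxuan048 control, and 80.5 in KU50 drought and 84.4 in KU50 control. MANES_05G161500, on chromosome 5, had 57.6 and 125 FPKM in Xinxuan048 drought and control, and 86.3 and 88.2 in KU50 drought and control. In both, the KU50 libraries nearly coincided, with log2 ratios of -0.07 and -0.03, and Xinxuan048 lay on either side of them.

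MANES_11G130100, on chromosome 11, had 38.6 and 86.9 FPKM in Xinxuan048 drought and control, and 47.5 and 51.5 in KU50 drought and control. MANES_17G017300, on chromosome 17, had 38.1 and 82.5 FPKM in Xinxuan048 drought and control, and 52.1 and 57.8 in KU50 drought and control. MANES_18G022100, on chromosome 18, had 36.3 and 81.9 FPKM in Xinxuan048 drought and control, and 100.3 and 111 in KU50 drought and control. MANES_18G022100 alone among these 5 was higher in KU50 in control leaves as well, by a control gap of -0.43.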

How the data were processed

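The authors deposited 1 FPKM value per gene for each of 4 cassava leaf libraries, as the file headers name the column. TopHat2 2.0.12 and Cufflinks are named in the submitters' processing notes, and roles, settings, build and annotation are not given in the sources used here. End minus start was a multiple of 3 in 54.8% of the 2887 loci under 900 bases, so starts were read as counted from 0 and are printed raised by 1. A damaged position in 1 library was taken from another. Relative depth is the commonest ratio to KU50 control among genes whose FPKM times span was under 600, in bins of 0.02. Very long loci were left out. Only ratios within a preset range were searched, so a larger difference in depth could not have shown.

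Members, lists and tests were chosen with earlier results of these data known. Log2 ratios were computed on FPKM + 1 in Python 3.11.15 with pandas 2.3.3. The code of the selection was checked on simulated data without noise or low levels, which says nothing about counting error in the members. Gene lists by description were not applied for want of matching tags. Members were named by a fixed rule: the 8 lowest Xinxuan048 ratios with at least 5 FPKM in control, the 4 highest Xinxuan048 control levels, the 3 most extreme of each gap, 2 on each side of each limit, and adjacent members. Others are marked as chosen later. Alternatives were 2 pseudocounts, 3 scalings (common total, upper quartile, TMM), other limits of the rule and centring.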

Additional observations from a re-analysis of the deposited data

Results flagged for a closer look

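In 17 members the log2 ratio was at most -1 in Xinxuan048 and above 0 in KU50, by as little as 0.01 in MANES_14G013200. Both held in 0.199% of the filtered genes, but the rule demands the Xinxuan048 ratio of every member. Among all genes inside the same KU50 band 32.0% were below 0, against 73.4% of the members. Both ratios were used to choose the members, so nothing is read from the difference between these shares. With upper-quartile scaling 10 members, and with TMM 9, were above 0 in KU50, and MANES_01G101700 was at -0.06 and -0.07. With 1 library per group these differences were not tested, and the rule itself allows KU50 ratios up to 0.5. Among the members named by rule, the log2 ratio of Xinxuan048 minus that of KU50 was -2.74 for MANES_01G103100, -2.18 for MANES_01G101700, -1.99 for MANES_03G017500, -1.82 for MANES_01G092600 and -1.46 for MANES_07G058400. MANES_01G103100 and MANES_01G101700 had less than 1 FPKM in all libraries but Xinxuan048 control. The part of counting error in these values was not tested.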

How the results depend on the processing

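The number of members, 64 as described, was 30 with a pseudocount of 5, 135 with upper-quartile scaling, 158 with TMM, 38 with a mean of at least 5 FPKM, 28 with KU50 between -0.25 and 0.25, 12 with Xinxuan048 at most -1.5, and 174 with responses centred on their medians, an alternative chosen after seeing the data. It stayed within 1.5-fold with the other settings, from 62 to 95. Of the 158 genes under TMM, 37 are among the 64. For the 64 genes held fixed, the median in Xinxuan048 was -1.44 with a pseudocount of 0.1, -0.85 with 5, -1.46 under upper-quartile scaling and -1.49 under TMM. In KU50 it was -0.41 under upper quartiles and -0.46 under TMM. Members high in Xinxuan048 control numbered 8 and members low in Xinxuan048 drought 6 with a pseudocount of 5, which shrinks the ratios of low genes by construction. No ratio of the 20 members named by rule changed sign in Xinxuan048 under the 5 pseudocounts and scalings. This was bound to hold, so nothing is read from it. A pseudocount cannot change a sign, and every member was chosen at -1 or lower. The scalings moved the Xinxuan048 median of the filtered genes from 0.37 to no lower than 0.04. Apart from the shrinkage by a pseudocount of 5, the cause of the changes above was not tested. No replicate could be left out, and no paired analysis was possible because each group holds 1 library.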
